A study of Mus musculus with 36 samples.

Results

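ATP-binding cassette (ABC) transporters use ATP to move molecules across membranes, and 10 genes of their family, known for efflux, for lipid transport or as a channel subunit, were followed in mouse gastrocnemius, a calf muscle of mostly fast fibres. The genes were chosen by name, as Abcg2, Abcb1a, Abcb1b, Abcc4, Abcc1, Abcc9, Abca1, Abcg1, Abcd2 and Abcd3, out of 53 ABC family genes and 46893 features in the count table, and all 10 names were found once. The members and the gene lists used below were chosen with earlier results of these data known. Counts of their calls beside the share of all genes are therefore descriptions and not tests of the family. The libraries came from 36 wild-type male C57BL/6 mice, 6 in each of 6 groups, which entered the study at 3 to 4 weeks of age and were killed after 12 weeks. The sedentary groups ate the AIN93G diet (NFD-C) or a high-fat diet (HFD-C). The running groups ate the high-fat diet and had a wheel in the cage. Running was free for HFD-U, which covered 8.3 km/day. A brake stopped the wheel at 2.1 km/day for HFD-25%, 4.2 km/day for HFD-50% and 6.3 km/day for HFD-75%. No running group ate AIN93G, so running was measured on the high-fat diet alone.

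Abcg2 (BCRP) and the P-glycoproteins Abcb1a and Abcb1b pump drugs and metabolites out of cells, and in many tissues they are known from capillary endothelium. Abcc4 and Abcc1 export organic anions, cyclic nucleotides and glutathione conjugates, while Abcc9 (SUR2) is the regulatory subunit of an ATP-sensitive potassium channel of muscle and vessels and transports nothing itself. Abca1 and Abcg1 hand cholesterol to lipoprotein particles and are textbook targets of the oxysterol receptors LXR. Abcd2 and Abcd3 bring fatty acids into peroxisomes for oxidation.

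For 5 of the 10 members, the RefSeq promoter table of GRCm38.p6 gave bases that lie before the first base of the gene. The 4 below belong to genes that rose with running in at least 1 comparison, and they are shown to let the efflux pumps be set beside the cholesterol exporter. They cover chr6:58584283-58584490 on the plus strand for Abcg2, chr5:8566841-8567090 and chr5:8797897-8798146 on the plus strand for Abcb1a and Abcb1b, and chr4:53159989-53160145 on the minus strand for Abca1. Capitals mark matches on either strand to 4 short motifs. The first is the half-site of nuclear receptors, AGGTCA. The second, known as the GC box and bound by Sp1, is GGGCGG. The third is the pentamer of the factor NF-Y, written CCAAT. The last is an E-box, the site of many basic helix-loop-helix proteins, CACGTG.
Abcg2: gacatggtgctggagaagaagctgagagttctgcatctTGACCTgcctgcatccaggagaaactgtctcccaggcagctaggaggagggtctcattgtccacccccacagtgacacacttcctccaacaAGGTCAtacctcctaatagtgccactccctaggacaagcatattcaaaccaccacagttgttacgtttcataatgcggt
Abcb1a: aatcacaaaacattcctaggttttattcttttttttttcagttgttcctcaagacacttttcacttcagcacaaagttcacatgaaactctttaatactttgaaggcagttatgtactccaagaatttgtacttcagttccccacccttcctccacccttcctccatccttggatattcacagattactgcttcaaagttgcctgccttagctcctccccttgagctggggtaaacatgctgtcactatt
Abcb1b: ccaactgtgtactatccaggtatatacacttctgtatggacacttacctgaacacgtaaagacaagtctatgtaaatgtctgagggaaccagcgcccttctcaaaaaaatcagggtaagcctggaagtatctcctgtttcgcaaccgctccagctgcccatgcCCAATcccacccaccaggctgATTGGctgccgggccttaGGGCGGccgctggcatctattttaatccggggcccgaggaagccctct
Abca1: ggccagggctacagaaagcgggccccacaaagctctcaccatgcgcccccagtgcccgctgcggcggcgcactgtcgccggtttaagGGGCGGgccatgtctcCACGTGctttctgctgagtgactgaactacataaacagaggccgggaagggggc

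The window of Abcg2 held AGGTCA 2 times, once on each strand, a motif found in 11.9% of all promoters cut to the same length. RefSeq gave 3 promoter entries for Abcg2, and only the one nearest the first base of the gene is described here. Abcb1b held CCAAT 2 times and GGGCGG once, with shares of 33.8% and 32.7%, and Abcb1a, its neighbour on the chromosome, held none of the 4 motifs. Abca1 held GGGCGG once and CACGTG once, with shares of 17.6% and 3.06%. Searched without a match was the TATA box, TATAAA, present in 12.4% of promoters of 250 bases. Nor did any of the 4 windows shown hold the core of the site bound by the dioxin receptor, GCGTG, which is present in 28.2%. The antioxidant core TGACNNNGC, present in 10.2%, was not found. The glucocorticoid receptor half-site, present in 16.1% and spelled AGAACA, was not found. A pair of AGGTCA copies 4 bases apart, the form LXR is known to bind, was not found either and occurs in 0.0152%. The marked matches did not overlap, and GC content of the 4 windows shown ran from 40.4% for Abcb1a to 65.0% for Abca1. The window of Abcd3, not shown, had 72.0% GC and held GCGTG 2 times and none of the 4 marked motifs. A match is a description of letters and not of a binding site.

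The 36 libraries held 13060090 to 27981702 counted reads. Features linked to ribosomal RNA took 2.01 to 3.8% of the counts in 10 libraries, namely all of NFD-C and HFD-C mice 1 to 4, and 0.404 to 1.02% in the other 26, so every running mouse stood on the low side. Within the low-share libraries, running could be compared with HFD-C mice 5 and 6 alone. Endothelial, pericyte, macrophage, adipocyte, Schwann cell, blood, fibroblast, fast fibre and slow fibre markers were all detected, and the fast fibre markers summed to 79800 to 154000 CPM (counts scaled to a common library size). In such whole-muscle RNA, fewer cells of a type and less RNA per cell cannot be told apart.

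Levels between genes were compared per length, as FPKM. Abcc9 was the most abundant member, with a median of 28.4 FPKM over the 36 mice, and Abcd3 followed with 12.8. Abcc1, Abcg2 and Abcd2 lay close together at 7.16, 7.11 and 6.7 FPKM. Abca1 had a median of 3.21, Abcb1a 2.3, Abcb1b 2.2, Abcc4 1.98 and Abcg1 0.398 FPKM. All 10 members passed the minimum mean count of 25, with Abcg1 nearest to it at a mean of 42.6 reads (13 to 98 per library). Other levels are given in CPM, which compare mice for 1 gene.

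**Figure D1:**
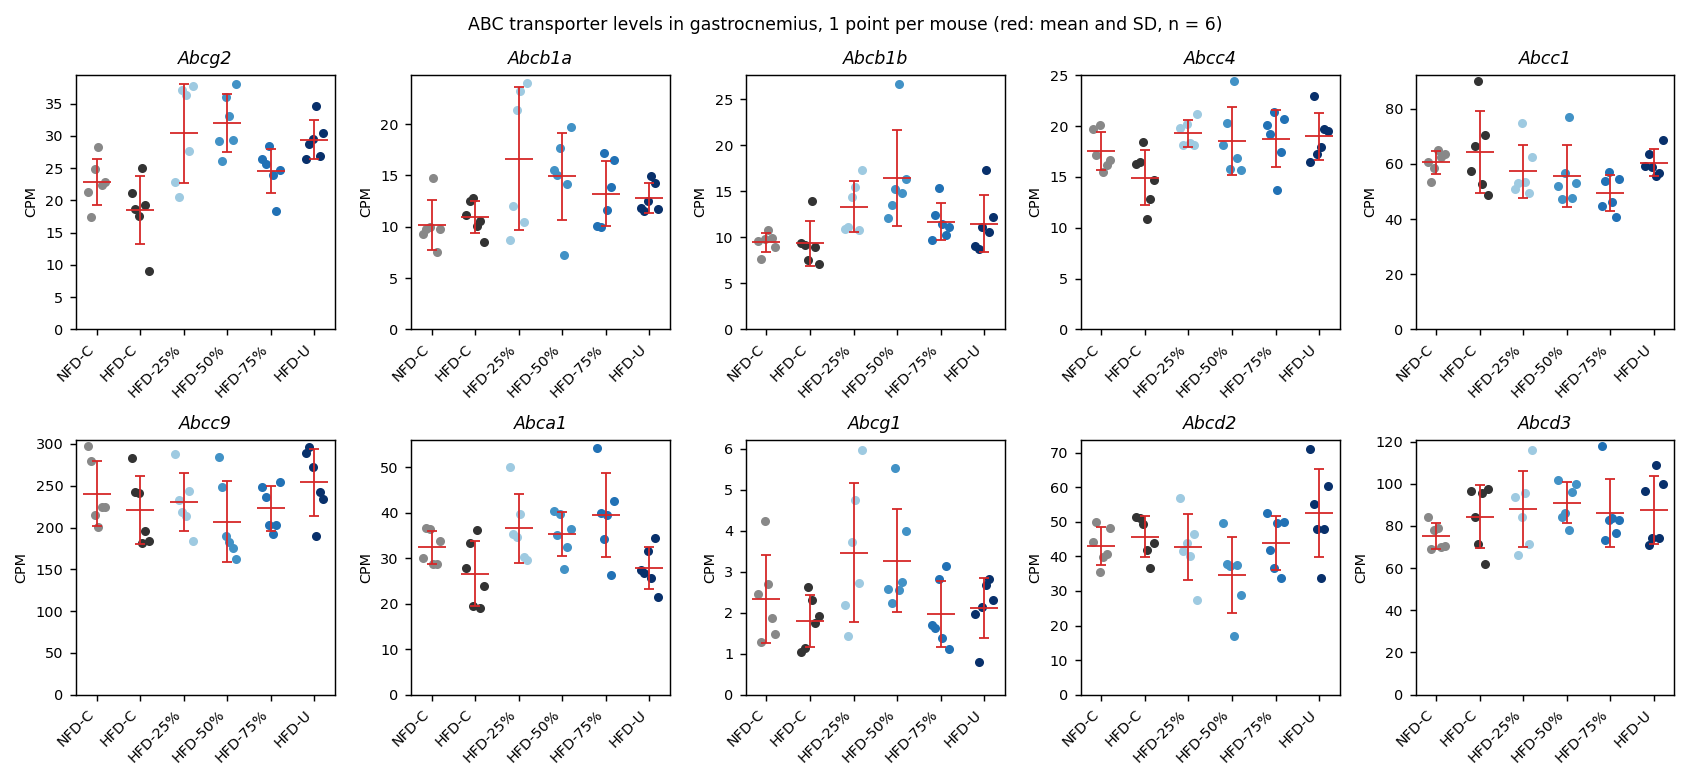
Level of each member in CPM (y axis, from 0) in the 6 groups (x axis), with 1 point per mouse and red bars for the mean and SD of 6 mice. Abcg2 lies above every HFD-C mouse in all 6 mice of HFD-50% and of HFD-U, while the groups overlap for Abcc9 and Abcd3.

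In HFD-25% against HFD-C, 4 efflux pumps and both cholesterol exporters were higher in the runners, before adjustment. Abcg2, Abcb1a, Abcb1b, Abcc4, Abca1 and Abcg1 rose at an unadjusted p of at most 0.05 in edgeR, which is 6 of 10 members, all upward, where 6.98% of the 12202 genes tested were called in either direction and 3.4% upward. At an adjusted p of at most 0.05 no member was called, against 0.0082% of the genes. In HFD-50%, 5 members rose (Abcg2, Abcb1a, Abcb1b, Abca1 and Abcg1), against 10.7% of 12116 genes in either direction, 5.8% upward and 0% after adjustment. In HFD-75%, Abcg2, Abcc4 and Abca1 rose and Abcc1 fell, against 5.47%, 2.31% upward and 0% after adjustment. In HFD-U, Abcg2 and Abcc4 rose, against 5.46%, 2.15% upward and 0% after adjustment.

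These 4 comparisons share the 6 HFD-C mice, so their calls are not independent of one another. In the pooled comparison of all 24 runners with HFD-C, Abcg2, Abcb1a, Abcb1b, Abcc4 and Abca1 rose, against 9.27% of 12006 genes in either direction and 4.15% upward. Abcg2 was also past the adjusted threshold there, as were 36 genes in all or 0.3%. Diet alone gave no call among the members. NFD-C against HFD-C called 0 of 10 in edgeR and 0 in DESeq2 at an unadjusted p of at most 0.05, against 4.12% of 12247 genes, and 0% after adjustment.

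**Figure D2:**
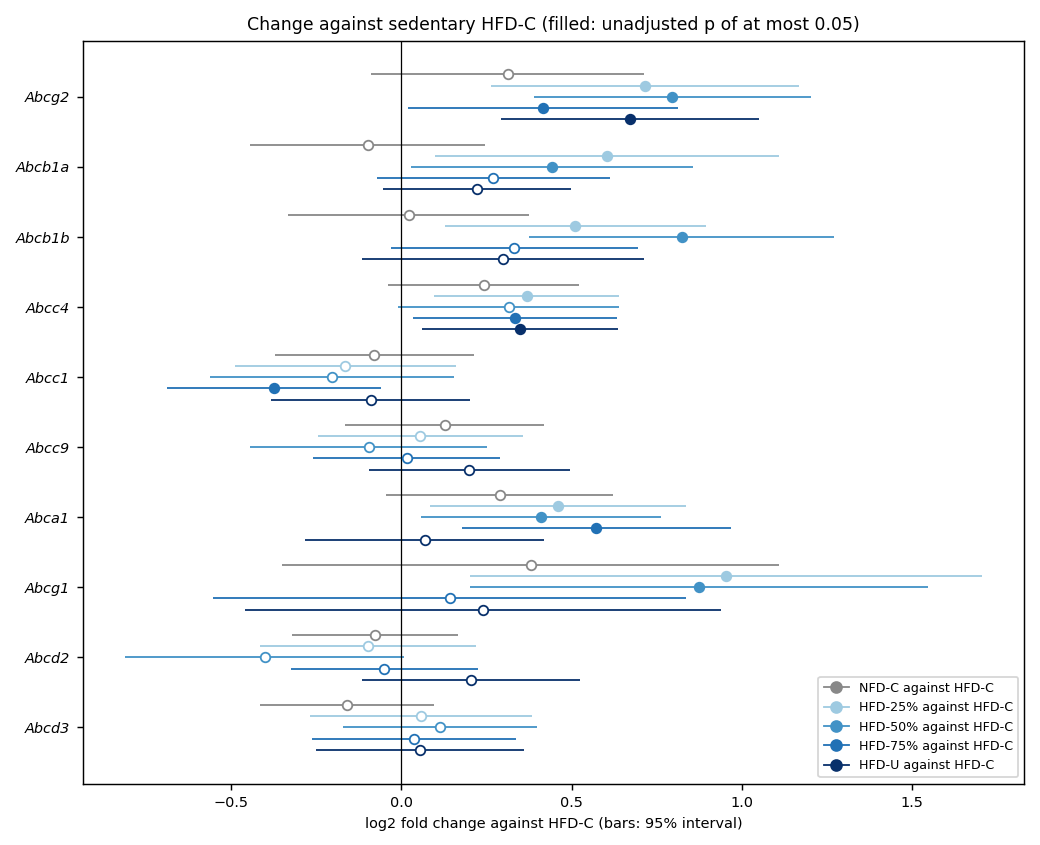
Log2 fold change against HFD-C (x axis) of each member (y axis) in NFD-C and in the 4 running groups, with bars for the 95% interval and filled points at an unadjusted edgeR p of at most 0.05. The 4 running groups of Abcg2 are filled, from 0.42 to 0.80, and no point of NFD-C is.

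Abcg2, on chromosome 6 at 58561476 to 58669436 of GRCm39, plus strand, was called in each of the 4 running groups. In HFD-C its lowest, median and highest levels were 9.07, 19.0 and 25.0 CPM. HFD-25% had 20.5, 32.0 and 37.8 CPM, and HFD-50% had 26.1, 31.3 and 38.0. HFD-75% had 18.4, 25.2 and 28.5 CPM, and HFD-U had 26.5, 29.1 and 34.7. HFD-50% and HFD-U did not overlap HFD-C, whereas 4 mice of HFD-25% and 3 of HFD-75% lay above its highest mouse. NFD-C, at 17.5, 22.6 and 28.3 CPM, overlapped it widely.

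The mean of Abcg2 was 18.5 ± 5.29 CPM in HFD-C and 32.0 ± 4.53 in HFD-50% (SD, n = 6 each), a log2 fold change of 0.80 ± 0.19 (SE, edgeR, adjusted p = 0.139). The fold changes were 0.72 ± 0.21 in HFD-25% (edgeR, adjusted p = 0.427) and 0.67 ± 0.18 in HFD-U (edgeR, adjusted p = 0.436). In HFD-75% it was 0.42 ± 0.19 (edgeR, adjusted p = 0.889), and this call was lost without HFD-C mouse 2, 3 or 5 or HFD-75% mouse 1, 2, 3, 4 or 6, at 0.37 to 0.43. Over all runners it reached 0.65 ± 0.14 (edgeR, adjusted p = 0.0357). NFD-C differed from HFD-C by 0.31 ± 0.19, which did not pass (edgeR, adjusted p = 1). The HFD-C mouse at 9.07 CPM was the lowest of all 36, and without it the change was 0.66 for HFD-50% and 0.54 for HFD-U, both still called. The fit over all runners was not repeated without that mouse. Within the low-share libraries, the only HFD-C mice were that one and mouse 5, at 19.3 CPM, so the values there are not free of it. The change there was 1.18 in HFD-50%, 1.05 in HFD-U and 1.04 over all runners. Each was called at an unadjusted p, while the adjusted call over all runners was lost there.

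Abcb1a and Abcb1b, the mouse genes for P-glycoprotein, lie next to each other on chromosome 5 of GRCm39, at 8617091 to 8798575 and 8848147 to 8916314. Of the 150-base windows in their transcripts, 5.54% and 3.63% are shared, so reads there could fall to either gene. Abcb1a spanned 8.52 to 12.8 CPM in HFD-C. HFD-25% spanned 8.74 to 24 CPM, HFD-50% 7.29 to 19.7, HFD-75% 9.93 to 17.2 and HFD-U 11.5 to 14.9. It rose by 0.60 ± 0.24 on the log2 scale in HFD-25% (edgeR, adjusted p = 0.633) and by 0.44 ± 0.20 in HFD-50% (edgeR, adjusted p = 0.431). In HFD-25% the group was split, with HFD-25% mice 3, 4 and 6 at 21.4, 23.2 and 24 CPM and the other 3 at 8.74 to 12.0 CPM, inside the HFD-C range. Leaving out any 1 of those 3 mice ended the call, at 0.48 to 0.52. The call in HFD-50% was lost without any 1 of 8 mice, HFD-C mice 1, 4, 5 and 6 and HFD-50% mice 1, 2, 3 and 6, at 0.35 to 0.45, and both calls were lost within the low-share libraries, at 0.81 and 0.65.

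Abcb1b spanned 7.07 to 14.0 CPM in HFD-C, with a median of 9.03. HFD-25% had a median of 12.7 CPM, HFD-50% 15.0, HFD-75% 11.3 and HFD-U 10.9. All 6 mice of HFD-25%, HFD-50% and HFD-75% were above the HFD-C median, and 4 of HFD-50% were above its highest mouse. Abcb1b rose by 0.82 ± 0.21 in HFD-50% (edgeR, adjusted p = 0.163) and by 0.51 ± 0.18 in HFD-25% (edgeR, adjusted p = 0.559). HFD-75% and HFD-U differed from HFD-C by 0.33 ± 0.17 and 0.30 ± 0.20, which did not pass. HFD-C mouse 4, at 14.0 CPM, stood above the rest of its group, and without it both passed, at 0.48 and 0.45.

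Abcc4 (chromosome 14, 118720104 to 118945475, minus strand) showed a small change of much the same size at every distance. Its medians were 15.5 CPM in HFD-C and 16.9 in NFD-C, and with rising distance 19.0, 17.5, 19.6 and 18.7. The log2 fold changes were 0.37 ± 0.13, 0.32 ± 0.15, 0.33 ± 0.14 and 0.35 ± 0.14 in order of distance, and the second did not pass (edgeR, adjusted p = 0.477). Over all runners the change was 0.34 ± 0.10 (edgeR, adjusted p = 0.146). The call in HFD-U was lost without HFD-U mouse 2, at 0.29. That in HFD-75% was lost without HFD-C mouse 4 or 5 or HFD-75% mouse 1, 2, 3 or 6, at 0.26 to 0.33.

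Abcc1 (chromosome 16, 14179317 to 14292743, plus strand) went the other way. It spanned 48.8 to 90.0 CPM in HFD-C and 40.8 to 57.1 in HFD-75%, where all 6 mice were below the HFD-C median of 62.0. Abcc1 fell by 0.37 on the log2 scale in HFD-75% (edgeR, adjusted p = 0.82). Without the HFD-C mouse at 90.0 CPM the difference was -0.25, without HFD-75% mouse 5 it was -0.325, and within the low-share libraries it was -0.27, and none of the 3 passed. In the other running groups the differences ran from -0.20 to -0.09, none of them called.

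Abcc9 (chromosome 6, 142533588 to 142648472, minus strand) was not called in any comparison. Group means ran from 207 ± 48.1 CPM in HFD-50% to 254 ± 39.9 in HFD-U (SD, n = 6 each), with 221 ± 40.7 in HFD-C. The 95% intervals of the log2 differences from HFD-C lay between -0.44 and 0.49 over the 4 running groups. In HFD-U, with mice paired by number, the difference of 0.20 passed the unadjusted threshold, and so did the 0.42 found within the low-share libraries. Of the 4 genes of the channel, Kcnj11, which forms its pore in muscle, differed from HFD-C by -0.29 to -0.09 in the runners, and 0 of the 4 were called in the comparisons with HFD-C.

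Abca1 (chromosome 4, 53030789 to 53159988, minus strand) was called in the 3 restricted groups and not in HFD-U. Its lowest, median and highest levels were 19.0, 25.9 and 36.3 CPM in HFD-C. HFD-25% had 29.7, 35.0 and 50.1, HFD-50% had 27.6, 35.8 and 40.4, and HFD-75% had 26.4, 39.7 and 54.3. In HFD-U they were 21.5, 27.1 and 34.4 CPM, all inside the HFD-C range. All 6 mice of each restricted group lay above the HFD-C median. So did all 6 sedentary mice of NFD-C, at 28.7, 31.8 and 36.6 CPM, where the log2 difference from HFD-C was 0.29 ± 0.16 and did not pass. Abca1 rose by 0.46 ± 0.18 in HFD-25% (edgeR, adjusted p = 0.624), by 0.41 ± 0.17 in HFD-50% (edgeR, adjusted p = 0.396) and by 0.57 ± 0.19 in HFD-75% (edgeR, adjusted p = 0.604). In HFD-U the difference was 0.07 ± 0.17 (edgeR, adjusted p = 0.997). The first lost its call without HFD-25% mouse 1, at 0.35, and the second without HFD-C mouse 3 or 5 or HFD-50% mouse 1 or 3, at 0.33 to 0.37.

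Abcg1 (chromosome 17, 31276668 to 31336958, plus strand) gave the largest fold changes of the members in HFD-25% and HFD-50%, with the widest errors. It spanned 1.03 to 2.63 CPM in HFD-C. HFD-25% spanned 1.42 to 5.96 CPM, HFD-50% 2.23 to 5.52, HFD-75% 1.12 to 3.13 and HFD-U 0.801 to 2.83. Abcg1 rose by 0.95 ± 0.35 in HFD-25% (edgeR, adjusted p = 0.597) and by 0.87 ± 0.32 in HFD-50% (edgeR, adjusted p = 0.333). It differed by 0.14 ± 0.33 in HFD-75% and 0.24 ± 0.33 in HFD-U, neither of which passed. Sedentary NFD-C mice spanned 1.29 to 4.23 CPM and differed from HFD-C by 0.38 ± 0.34, which did not pass either. The first call was lost without HFD-25% mouse 6 (0.74) and the second without HFD-50% mouse 3 (0.66). Within the low-share libraries the same differences were 0.93 and 0.84, and neither passed.

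The peroxisomal transporters were not called against HFD-C. Abcd3 (chromosome 3, 121552553 to 121609851, minus strand), an abundant protein of the peroxisome membrane, had group means of 75.2 ± 6.09 CPM in NFD-C and 84.5 ± 15.0 to 91.1 ± 9.79 CPM in the high-fat groups (SD, n = 6 each). Abcd2 (chromosome 15, 91029878 to 91076706, minus strand) had its lowest mean, 34.6 ± 11.0 CPM, in HFD-50% and its highest, 52.6 ± 12.7, in HFD-U, with 45.7 ± 5.96 in HFD-C. Its log2 differences from HFD-C were -0.40 ± 0.19 in HFD-50% (edgeR, adjusted p = 0.477) and 0.20 ± 0.15 in HFD-U (edgeR, adjusted p = 0.997). HFD-50% mouse 4, at 16.9 CPM, had the lowest Abcd2 level of the 36 mice.

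Ordered by mean, few neighbouring groups differed by more than their spread. For Abcg2 this held between HFD-75% and HFD-U, and for Abcb1a between HFD-C and HFD-U. For the other 8 members each group was within the SD of the next in order.

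Running distances were compared directly in 2 pairs. HFD-25% against HFD-U called 1 of 10 members, against 5.1% of 11949 genes and 0% after adjustment. Abca1 was higher in HFD-25% by 0.40 ± 0.14 (edgeR, adjusted p = 0.927). HFD-50% against HFD-U called 3 of 10, against 12.4% of 11851 genes and 0.00844% after adjustment. Abca1 was higher in HFD-50% by 0.34 ± 0.13 and Abcb1b by 0.52 ± 0.21, while Abcd2 was lower, at -0.61 ± 0.22. The adjusted p-values of edgeR for these 3 were 0.313, 0.341 and 0.294. Mice of HFD-50% and HFD-U were all on the low side of the ribosomal share. With that share as a covariate Abcb1b gave -0.001 and Abcd2 -0.10, while Abca1 was still called. HFD-50% mouse 4 had the highest Abcb1b of its group, 26.7 CPM next to 16.3, and its lowest Abcd2, 16.9 CPM. Its ribosomal share, 1.02%, was the highest of the low-share libraries. The comparison of HFD-50% with HFD-U was not repeated without that mouse, so the mouse's part in these values was not tested. Slow fibre markers moved with this comparison, 5 of 6 being called higher in HFD-50% with a median log2 difference of 2.01, and their part in these results was not tested. Abcg2 differed in these 2 pairs by 0.05 and 0.12, with 95% intervals of -0.275 to 0.37 and -0.13 to 0.37. HFD-75%, where its mean was lowest among the runners (24.6 CPM, next to 29.4 in HFD-U), was not compared directly with another distance.

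Distance was also fitted as a number, with a straight and a squared term. Across HFD-C and the runners, 30 mice in all, 6 of 10 members were called at an unadjusted p (Abca1, Abcb1b, Abcg2, Abcd2, Abcc4 and Abcg1), against 12.2% of the genes, and 0 members after adjustment, against 0.683%. The smallest p was that of Abca1 (edgeR, adjusted p = 0.121). Among the 24 runners alone, which leaves HFD-C out, Abca1, Abcd2 and Abcg1 were called (adjusted p-values of 0.534, 0.537 and 0.572 in edgeR), against 8.49% of the genes, and none after adjustment, against 0.0419%. Abcg2 was not called among the runners (edgeR, adjusted p = 0.883), nor was Abcc4 (edgeR, adjusted p = 0.977).

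Of the 43 other ABC family genes, 4 were at 0 in all libraries and 26 or 27 were tested in each comparison with HFD-C. At an unadjusted p, HFD-25%, HFD-50% and HFD-U had 1 call each, and HFD-75%, NFD-C and the pooled runners had 0, against 4.12 to 10.7% of all genes in these comparisons, so the count was near or below the share of all genes. The 3 genes, in that order, were Abcb6, Abca4 and Abca7, named after their values were seen. The median log2 difference of those tested ranged from -0.03 to 0.02, close to that of all genes.

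Around the cholesterol exporters, calls were counted in a list of 13 LXR and lipid efflux genes without Abca1 and Abcg1, of which 12 were tested. The list mixes receptors with other lipid genes and is not one of exporters alone. At an unadjusted p, 5 rose and 0 fell in HFD-25%, where 3.4% of all genes rose. HFD-50% had 5 and 0 (5.8% of all genes rose), HFD-75% 3 and 0 (2.31%) and HFD-U 2 and 1 (2.15%). NFD-C had 2 and 0, where 4.12% of all genes were called in either direction. The median log2 differences were 0.28, 0.29, 0.07, 0.14 and 0.09, where those of all genes were between -0.01 and 0.01. The 2 most abundant of the list were Rxra, the partner of LXR, and Npc1, which releases cholesterol from lysosomes. Npc1 rose in all 4 running groups, by 0.51 ± 0.22, 0.75 ± 0.20, 0.72 ± 0.19 and 0.62 ± 0.18 in order of distance (edgeR, adjusted p-values of 0.169 to 0.686), and in NFD-C by 0.47 ± 0.14 (edgeR, adjusted p = 1). Rxra differed by -0.13 to 0.04 in the runners, with no call. HFD-C had the lowest median of the summed list, 464 CPM, and the running groups and NFD-C had 530 to 554 CPM. Npc1 alone took a large part of this gap, with means of 85.5 CPM in HFD-C, 118 in NFD-C and 122 to 144 in the runners.

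Of 18 genes of peroxisomal fatty acid oxidation and PPAR targets, 16 or 17 were tested. HFD-50% had 4 called higher, against 5.8% of all genes, and HFD-75% 2 higher, against 2.31%. NFD-C had 1 lower, near the 4.12% of all genes called in either direction, and the other groups had 0. Pdk4, a PPAR target that restrains glucose oxidation, rose by 0.87 ± 0.35 in HFD-50% (edgeR, adjusted p = 0.392) and by 0.76 ± 0.25 in HFD-75% (edgeR, adjusted p = 0.615). Crat, carnitine acetyltransferase, was not called. Among 10 xenobiotic receptors and partners, which include known regulators of Abcg2 and Abcb1, 6 or 7 were tested and at most 1 was called in each direction, where 4.12 to 10.7% of all genes were called in either. The call past the adjusted threshold, named after its value was seen, was that of Nqo1, a quinone reductase, which fell by 0.345 on the log2 scale over all runners (edgeR, adjusted p = 0.0473). Their most abundant genes, Epas1 and Nfe2l2, were not called against HFD-C.

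Endothelial markers moved with the efflux pumps in part of the groups. Of 12, 6 rose in HFD-25%, against 3.4% of all genes, with a median log2 difference of 0.50. In HFD-50% 7 rose, against 5.8%, with a median of 0.50. In HFD-75% 3 rose, against 2.31%, with a median of 0.20. HFD-U had 0, against 2.15%, with a median of -0.001, NFD-C had 0 with a median of 0.03, and none of the 12 fell in these 5 comparisons. Flt1, a VEGF receptor, rose by 0.92 ± 0.27 in HFD-25% (edgeR, adjusted p = 0.423) and was not called in HFD-U, at 0.36 ± 0.20. Cdh5, the cadherin of endothelial junctions, rose by 0.69 ± 0.28 in HFD-25% (edgeR, adjusted p = 0.658) and differed by 0.18 ± 0.18 in HFD-U. The part of these markers in the changes of Abcg2, Abcb1a, Abcb1b and Abcg1 was not tested in any group.

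**Figure D3:**
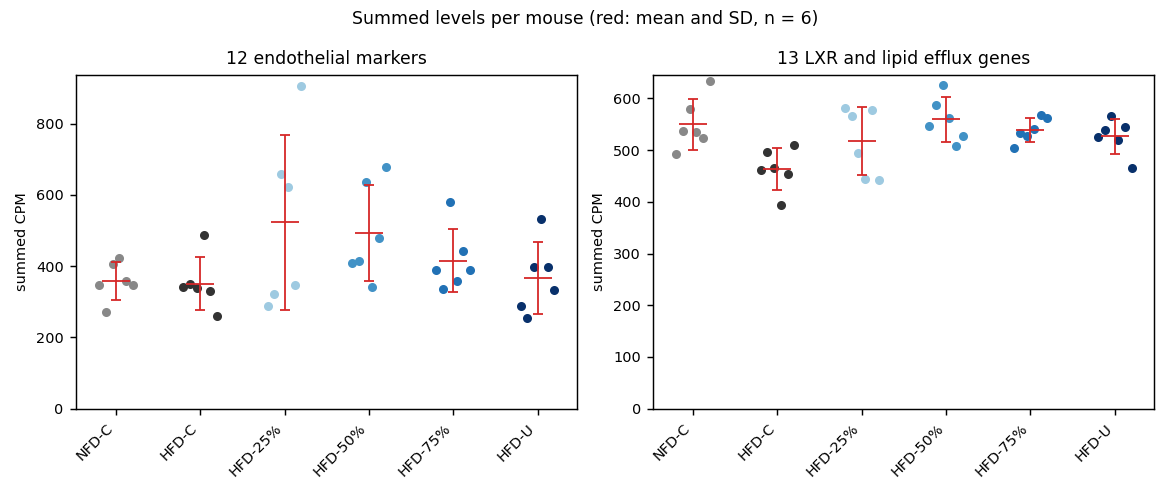
Summed CPM per mouse (y axis, from 0) of 12 endothelial markers and of 13 LXR and lipid efflux genes other than the members, by group (x axis), with red bars for the mean and SD of 6 mice. In HFD-25%, 3 mice have 622 to 905 CPM of endothelial markers and 3 have 288 to 346, next to 260 to 487 in HFD-C.

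Within HFD-25%, the same mice were high for endothelial markers and for Abcg2, Abcb1a, Abcb1b and Abcg1. Mice 3, 4 and 6 had 658, 622 and 905 CPM of endothelial markers, and mice 1, 2 and 5 had 288, 322 and 346. Abcg2 stood at 37.1, 36.3 and 37.8 CPM in the first 3 and at 22.9, 20.5 and 27.7 in the others. Abcb1b stood at 14.4, 15.5 and 17.3 CPM against 10.9, 11.1 and 10.8, and Abcg1 at 3.73, 4.75 and 5.96 against 2.19, 1.42 and 2.72. Abca1 did not follow this split, with 34.7, 39.7 and 29.7 CPM in the first 3 mice and 50.1, 35.3 and 30.2 in the others.

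Of the remaining marker lists, none had more than 3 calls against HFD-C in a running group. Pericyte and smooth muscle markers had 1 of 9 higher in HFD-25% and in HFD-50%. Fibroblast markers had 1 to 3 of 6 lower in each running group. Markers of macrophages, cells known to use Abca1 and Abcg1, had 2 of 8 lower in HFD-75% and 1 lower in HFD-U. Adipocyte markers had 1 lower in HFD-25% and 3 lower in HFD-U, blood 1 lower in HFD-75% and in HFD-U, Schwann cell 1 lower in HFD-U, and fast and slow fibre markers 0 in each, where 5.46 to 10.7% of all genes were called in either direction. The part of these markers in the members' changes was not tested.

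Some members varied together when mice were compared within their groups. Deviations of log2(CPM + 1) from the group mean were correlated over the 36 mice, as a description, since all values of a mouse share 1 library, its scaling and its mix of cells. With the summed endothelial markers, Pearson's r was 0.78 for Abcb1a, 0.75 for Abcg1, 0.70 for Abcg2 and 0.58 for Abcb1b, with Spearman's rho of 0.76, 0.74, 0.72 and 0.65. For all 12041 genes other than these markers the median r was -0.009, with 5% of them above 0.656, a value that Abcb1b does not reach. Without the 2 mice farthest from the median of the member, r was 0.71 for Abcg2, 0.745 for Abcb1a, 0.78 for Abcb1b and 0.69 for Abcg1. Without the 2 farthest in the endothelial sum, it was 0.67, 0.72, 0.53 and 0.715 in the same order. Other marker sums went with them too, and Abcb1b had a higher r with blood markers (0.72, rho 0.70) than with endothelial ones. With adipocyte markers its r of 0.59 was close to the endothelial 0.58, and its rho was lower, 0.57 next to 0.65. Abcg1 had 0.65 with blood and 0.635 with adipocyte markers. Within the 10 high-share libraries r for Abcb1a was 0.16, and within the 26 low-share libraries 0.86, so that relation rests on the latter, whereas for Abcg2 the values were 0.93 and 0.67.

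Abcc9 and Abcd2 varied in the opposite direction. Their r with each other was 0.67 (rho 0.67), and with the endothelial markers it was -0.57 and -0.42. Abcb1b and Abcd2 had the most negative r of the 55 pairs, -0.74 (rho -0.62), which was -0.58 without the 2 mice farthest out in Abcb1b. Abcb1a and Abcb1b, though both encode P-glycoprotein, had an r of 0.17 (rho 0.31). Abca1 had an r of -0.03 with the endothelial markers and of -0.20 with Abcg1. Abcc4 was nearest to Abcc1, with an r of 0.48 (rho 0.36).

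Fibre markers split the peroxisomal pair. Abcd3 had an r of 0.60 with the summed slow fibre markers and of -0.73 with the fast ones, whereas Abcd2 had -0.26 and 0.38. Abcb1b, Abcg2 and Abcg1 had r of -0.61, -0.56 and -0.54 with the fast fibre markers, which make up a large share of every library. Pericyte and smooth muscle markers went with Abcg2 and Abcb1a at 0.77 and 0.70. Abcc9 had an r of -0.83 with the summed adipocyte markers, a sum of which most is Fabp4.

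**Figure D4:**
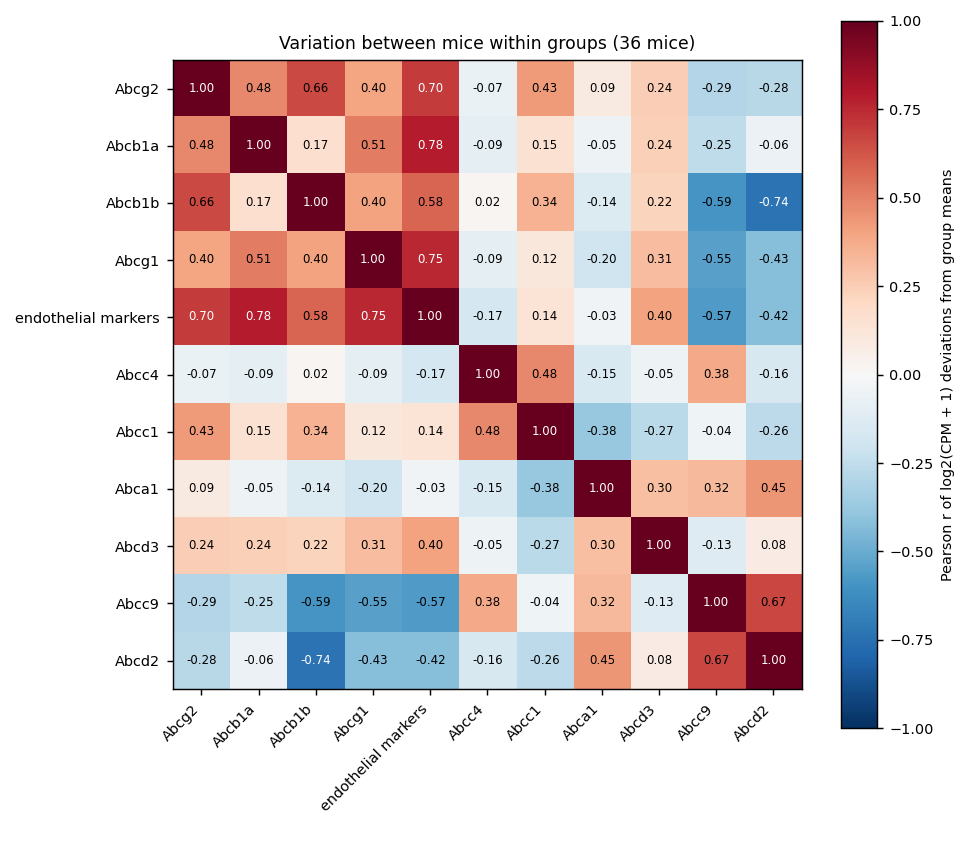
Pearson's r (colour and number) between the members and the summed endothelial markers, over the deviations of 36 mice from their group means on the log2(CPM + 1) scale. Abcg2, Abcb1a, Abcb1b and Abcg1 have r of 0.58 to 0.78 with the endothelial markers, and Abcc9 and Abcd2 have negative values.

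Genes most like each member were sought over all 36 mice, group differences included. For Abcg2 these were Timp3 (r = 0.815), Plcb4 (0.812) and the endothelial Flt1 (0.787), and for Abcb1a they were Cdh5 (0.844), Afdn (0.834) and Sparcl1 (0.813). Abcb1b was closest to Pkp4 (0.858), Galnt15 (0.846) and Ly6c1 (0.832), and Abcg1 to St6galnac2 (0.821), Gata2 (0.817) and Oas2 (0.812). For Abcc9 they were Prkaa2 (0.936), Arcn1 (0.93) and Marchf6 (0.911), for Abcd3 Ephx2 (0.889) and Mdh1 (0.876), and for Abcd2 Timm29 (0.88), Pkia (0.864) and Srl (0.852). The closest genes were less alike for Abcc4, with Rnf216 (0.705), Dnajc1 (0.636) and Tbc1d15 (0.584), and for Abcc1, with Lysmd2 (0.693), Ipo9 (0.681) and Per1 (0.648). Abca1 had the lowest top value, with Irf2bpl (0.635), Zbtb16 (0.626) and Myf5 (0.622). The best of 36 mice over all genes is high by selection, and rho for these genes ran from 0.462 to 0.936.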

How the data were processed

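One gastrocnemius of each of 36 mice was sequenced as 1 poly(A)-selected library. The authors aligned reads with HISAT2 2.0.5 and made the deposited counts per gene with featureCounts 1.5.0-p3, per the labels. Strand use in counting is not given in the sources used here. The processing notes name mm10, but the chromosome sequences and 9 of 10 members' coordinates in the file are not those of GRCm38, so gene coordinates are given as GRCm39 and promoters as GRCm38.p6.

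The deposited counts were analysed with edgeR 4.0.16 in R 4.3.3. A gene needed a mean count of 25 or more in the libraries of a fit, TMM factors computed, and quasi-likelihood F-tests run two-sided, with Benjamini-Hochberg adjustment over all genes of the fit. Calls rest on the study's limit, a p of at most 0.05 before adjustment, and are given after adjustment too. Each comparison of 2 groups used their 12 libraries alone. CPM are counts scaled to a common library size with the TMM factors, and FPKM divides them by the deposited gene length. Totals of 13060090 to 27981702 reads set the counting error. P-values set a group difference, or the distance terms, against the spread between mice. In the pooled comparison that spread includes differences between the 4 running groups. The tests were tried on simulated data.

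Members and lists (LXR and lipid efflux, peroxisomal oxidation, potassium channel partners, xenobiotic receptors, 9 sets of cell type markers, rRNA-linked features) were chosen with earlier results of these data known. Named are all members, other family genes called in at least 2 running groups, the 2 most abundant genes of a context list where they bear on a member, and each member's 3 closest genes by Pearson's r, of which 1 is not reported here. Of 9 rRNA-linked features listed, 5 were found. Alternatives were DESeq2 1.42.0, RLE factors, no minimum count, the mouse number as a block, the rRNA-linked share as a covariate, the low-share (for NFD-C, high-share) libraries alone and leaving out each mouse. Single mice were left out only in the comparisons of 1 group with HFD-C. The mice numbered 2 to 6 alone were added after seeing the data. Mouse numbers recur in every group. In HFD-U and HFD-C all 6 same-numbered pairs deviated together (r of 0.123 to 0.504 over genes), a hint from the data alone. The features overlapping a member averaged at most 2.7 reads.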

Additional observations from a re-analysis of the deposited data

Results flagged for a closer look

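In 5 of 60 sets of 6 mice (10 members in 6 groups), 1 mouse stood far from the rest of its group by Dixon's criterion, which chance meets in about 1 of 20. All 5 were the highest of their set, in CPM. Mouse 4 of NFD-C had 14.8 of Abcb1a, next to 9.93. Mouse 4 of HFD-C had 14.0 of Abcb1b, next to 9.41. Mouse 4 of HFD-50% had 26.7 of Abcb1b, next to 16.3, and 77.1 of Abcc1, next to 56.6. The same HFD-50% mouse had the lowest Abcb1a (7.29) and Abcd2 (16.9) of the 36 mice. Mouse 1 of HFD-75% had 118 of Abcd3, next to 83.8.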

How the results depend on the processing

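Abcg2 kept its unadjusted call in HFD-25%, HFD-50%, HFD-U and all runners under every alternative run, and lost that in HFD-75% in mice 2 to 6 and without any 1 of 8 mice. Its adjusted call over all runners held under DESeq2, RLE factors, no minimum count, the block and the covariate, and was lost in the low-share libraries and in mice 2 to 6, which leave 2 and 5 HFD-C mice. That pooled fit was not rerun with single mice left out. In HFD-50%, DESeq2 called 2 members after adjustment and the block 1, and over 30 mice the dose response called 1 under each. Genes called after adjustment were not counted under these alternatives, so these counts have no share of all genes beside them. Of the 80 values of members under each alternative, 26 were called at first. DESeq2 raised 3 to calls, no minimum count 3, the block 8, the covariate 4 and mice 2 to 6 3. The block ended 2 calls, the covariate 6 besides the one that changed sign, and mice 2 to 6 7, while RLE factors moved none. Of 50 in the low-share libraries, 3 were raised to calls and 6 lost, and of 600 on leaving out a mouse, 15 and 35. The one that changed sign was Abcb1b in HFD-50% against HFD-U, at -0.001. Of uncalled differences, 6 changed sign with the covariate and 24 of 600 on leaving out a mouse.

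The number of members called in HFD-50% became 3 in the low-share libraries. In HFD-75% it became 2 with the covariate and 2 in mice 2 to 6. In HFD-U it became 4 with the covariate and 4 in the low-share libraries. With the replicate block it became 3 in HFD-U, 2 in NFD-C, 2 in HFD-25% against HFD-U, 5 in HFD-50% against HFD-U and 5 for the dose response over 24 runners, and no call against HFD-C in HFD-U was lost. HFD-25% against HFD-U had 2 with DESeq2 and 2 with no minimum count, and the dose response over 30 mice had 3 in the low-share libraries. Leaving out 1 mouse gave 4 to 6 in HFD-25%, 3 to 6 in HFD-50%, 2 to 4 in HFD-75%, 1 to 3 in HFD-U and 0 to 2 in NFD-C. The low values came without HFD-50% mouse 3 (3), HFD-75% mouse 2, 3 or 6 or HFD-C mouse 3 or 5 (2 each) and HFD-U mouse 2 (1). The cause of these shifts was not tested.

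Without a minimum count, more genes are tested and 1796 to 5723 were called, against 504 to 1472. The covariate gave 1617 in HFD-25%, 1020 in HFD-75%, 1490 in HFD-U, 864 in NFD-C, 348 and 543 in HFD-25% and HFD-50% against HFD-U, 1814 for all runners and 575 for 24 runners. The low-share libraries gave 1403, 1069 and 1390 in HFD-25%, HFD-75% and HFD-U, and the block 1232 in HFD-U, 850 in NFD-C and 1036 in HFD-25% against HFD-U. Low counts limit Abcg1, at 13 to 98 reads.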
